A study of Homo sapiens with 26 samples.

Results

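The small ribosomal subunit is built from an 18S ribosomal RNA and a set of proteins, among them those named RPS plus a number, RPSA and FAU. Of 12325 coding sequences (CDS) with reads per codon, 28 belonged to these genes, found by gene symbol without RPS6K kinases, Y-suffixed genes and paralogs ending in L. RPS7, RPS10 and RPS27 were among the genes that also belong to the subunit but were not analysed here. The 45 large-subunit (RPL) genes served as the closest comparison.

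The libraries came from Huh7 cells, a human hepatocellular carcinoma line, given fresh medium with PF-06446846 or with the DMSO vehicle. PF-06446846 is a small molecule that binds the ribosome and halts translation of a narrow set of nascent chains. The first study held ribosome footprint (ribo-seq) libraries in triplicate from vehicle, 0.3 μM and 1.5 μM compound at 10 min and at 60 min, 18 libraries in all. A second study held 8 libraries, 2 each of ribo-seq and matched mRNA-seq from vehicle and 1.5 μM at 60 min. The 22 ribo-seq libraries held between 6414227 and 22224137 reads on coding sequences and the 4 mRNA-seq libraries between 15227654 and 22036358. Of 8 hepatocyte genes looked for, 7 were in the tables, all but ALB, with summed levels of 19664 to 29797 CPM in the ribo-seq libraries. CPM is the read count scaled to the coding reads of a library times a normalization factor. PECAM1 was the only 1 of 6 markers of other cell types in the tables, at 11.5 to 27.9 CPM. Not every transcript matched a gene name, so a gene missing here is not shown to be unexpressed.

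Ribosomal protein mRNAs are a textbook case of translational control. Most begin with a cytidine followed by an unbroken run of pyrimidines, the terminal oligopyrimidine (TOP) tract, through which mTOR and the RNA-binding protein LARP1 set how many of these mRNAs are on ribosomes. The proteins divide between the head of the subunit, which swivels as tRNAs move through the ribosome, and the body, which holds the platform and the mRNA entry. FAU and RPS27A are made as fusions to a ubiquitin-like protein and to ubiquitin, and are cut after translation. Mutations in several of the genes cause Diamond-Blackfan anaemia.

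The start sites show this feature in the sequence. RefSeq windows around annotated starts (assembly GRCh38.p14) were matched for 22 of the 28 genes, and RPS2, RPS15A and RPS20 were among those not matched. Of 25 starts of these 22 genes, 17 (68%) began with C followed by at least 4 bases that were each C or T, against 27 of 49 RPL starts (55.1%) and 4.07% of 35116 starts of all genes. A run of at least 7 pyrimidines lay within 5 bases of the start in 20 of the 25 (80%), 63.3% of the RPL starts and 15.4% of all starts. The search read the transcribed strand only, and the runs of C and T were not separated from other pyrimidine motifs. The windows below run from 10 bases before to 20 bases after and including the annotated start, and the capitals mark the pyrimidine run nearest to it. They show 4 genes with long runs, RPS15 with a short one, and RPS28 and RPSA, to which the results return.
FAU, chr11:65122115-65122144, minus strand: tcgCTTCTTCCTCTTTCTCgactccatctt
RPS24, chr10:78033853-78033882, plus strand: aatcgtggTTCTCTTTTCCTCCTTggctgt
RPS21, chr20:62387093-62387122, plus strand: ctagctgCTTCCTTTCTCTCTCgcgcgcgg
RPS12, chr6:132814559-132814588, plus strand: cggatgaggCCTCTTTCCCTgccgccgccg
RPSA, chr3:39406710-39406739, plus strand: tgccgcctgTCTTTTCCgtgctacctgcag
RPS28, chr19:8321486-8321515, plus strand: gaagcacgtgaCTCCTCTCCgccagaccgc
RPS15, chr19:1438386-1438415, plus strand: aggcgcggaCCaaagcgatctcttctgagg

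The longest runs shown, in FAU and RPS24, were 16 bases. In RPS28 the annotated first base is A and the run of 9 begins at the next base, so it did not meet the first definition. RPS15 had a run of 2 bases. The annotated start of RPS29 lies 12330 bases from the start of the transcript counted here, and its window is not shown. Of the 25 starts, 21 lay within 50 bases of the start of the counted transcript, and 16 of these began with C and at least 4 pyrimidines.

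The tables hold 1 transcript per gene, and for several genes it is not the canonical one in GENCODE. The number of codons equalled that of the canonical CDS in 17 genes and differed in 11. Only 80 of 195 canonical codons were represented in length for RPS9, 47 of 120 for RPS20, 72 of 146 for RPS19, 88 of 134 for FAU and 219 of 250 for RPS6. In 19 genes every codon lay in the canonical CDS and frame, RPS24 had 134 codons in the tables and 131 in the GENCODE version used here, and in the other 8 some codons did not. FAU left the canonical frame after codon 73, RPS13 after codon 107 and RPS23 after codon 121. In 7 of these 8 genes, reads pooled over all 26 libraries stayed under 5% of the gene's mean for 5 or more codons in a row at the point of departure, and none of the 20 others had such a stretch. For RPSA this stretch covered codons 81 to 92, and for FAU codons 72 to 76. The eighth gene, RPS9, had no read in any library over its first 67 codons and reads on only 10 of its 80 codons in all. The values of RPS9 therefore rest on 13 to 85 reads per library.

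Footprints on the 28 genes made up 2.30 to 2.83% of all coding reads in the libraries of the first study, 2.41 to 2.54% in the ribo-seq of the second, and 3.54 to 3.8% in its mRNA-seq. Per codon, in the 60 min vehicle libraries of the first study, the median over the 28 genes was 5.55 CPM, against 6.23 CPM over the RPL genes and 0.0441 CPM over all 12325 transcripts. All but RPS9 lay at or above the 94.8th percentile of all transcripts. RPS29, a zinc-binding protein of the head, was highest at 19.7 ± 1.47 CPM per codon (SD, n = 3). RPS21 of the body followed at 16.2 ± 2.91 and RPS28, a head protein near the mRNA exit, at 11.3 ± 0.590. RPS18 (11.3 ± 0.338) and RPS24 (10.96 ± 0.138) did not differ from RPS28 beyond this spread. The order of these genes depends in part on reads at the end of the CDS. In the pooled vehicle libraries of the first study, the last codon before the stop held 15027 of 68167 RPS29 reads and 7739 of 45811 RPS28 reads. For RPS21 it held 1180 of 81839. Levels without this codon were not computed.

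The lowest were FAU at 2.62 ± 0.199 CPM per codon, RPS20 at 1.01 ± 0.10 and RPS9 at 0.0310 ± 0.00856, 3 of the 5 genes whose listed CDS is under 90% of the canonical length. The highest level was 636 times the lowest with RPS9, 19.5 times without it, and 6.30 times among the 23 genes with at least 90% of the canonical length. Among RPL genes the same ratio was 6.34. Subunit proteins are assembled in equal copy number, and in 21 of the 27 steps down the order the ranges of mean ± SD of neighbours overlapped. The 6 steps without overlap were RPS21 to RPS28, RPS19 to RPS27A, RPS6 to RPS14, RPS23 to FAU, FAU to RPS20 and RPS20 to RPS9. The median of the 12 head genes was 7.53 CPM per codon and that of the 16 body genes 4.84.

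**Figure D1:**
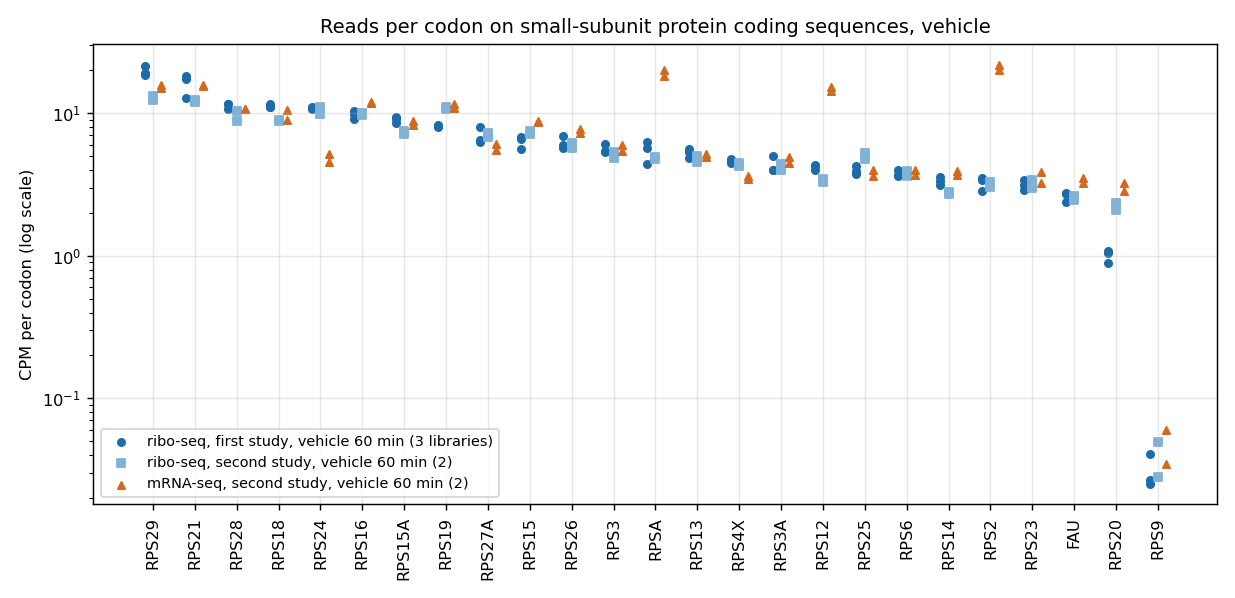
Reads per codon (CPM, log axis) on the small-subunit protein CDS (25 of the 28 genes) in the 60 min vehicle libraries, 1 point per library, ordered by the footprint level in the first study (circles, 3 libraries), with the second study's footprints (squares, 2) and mRNA-seq (triangles, 2). RPS2, RPSA and RPS12 have mRNA points far above their footprint points, RPS24 has them below, and RPS9 lies apart from the other genes in every assay.

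Messenger RNA followed another order. RPS2, a body protein at the entry of the mRNA channel, was highest at 21.1 ± 1.12 CPM per codon (SD, n = 2), followed by RPSA, the laminin-receptor homologue at the back of the subunit, at 19.1 ± 1.22. RPS21 and RPS29, at 15.7 ± 0.154 and 15.4 ± 0.659, did not differ beyond their spread, and RPS12 of the head stood at 14.7 ± 0.636. FAU (3.37 ± 0.210), RPS20 (3.07 ± 0.276) and RPS9 (0.0472 ± 0.0180) were again the lowest.

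Translational efficiency (TE), here the log2 ratio of footprints to mRNA reads in matched vehicle libraries relative to the median of 9278 transcripts with at least 50 reads, set 3 genes apart from the rest. It could be computed for 27 genes, all but RPS9. RPS2 had TE values of −2.71 and −2.74 in the replicates, at the 1.77th percentile of all transcripts. RPS12 had −2.18 and −2.04, and RPSA −1.90 and −2.02. These ratios are 0.151, 0.232 and 0.257 times that of the median transcript, and the gaps between the replicates were small beside these distances from 0. RPS20 and RPS14, by comparison, stood at −0.61 and −0.29 and at −0.50 and −0.39.

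At the other end stood RPS24, with TE values of 0.97 and 1.29, followed by RPS25 with 0.30 and 0.54 and RPS4X with 0.27 and 0.38. The median over the 27 genes was −0.22 and 23 were below 0, while the RPL median was −0.03 with 24 of 45 below 0. Between replicates, the TE of a small-subunit gene differed by a median of 0.140 and at most 0.426. With 1.5 μM compound the same 3 genes stayed low, RPS2 at −2.52 and −2.53.

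As CPM over the CDS, RPS2 had 5965 and 6433 CPM in the vehicle mRNA-seq against 891 and 965 CPM in the matched ribo-seq, RPSA 5500 and 6018 against 1439 and 1487, and RPS12 2020 and 1901 against 437 and 463. Their mRNA reads were not piled on single codons: the highest codon held 3.36, 3.28 and 4.13 times the CDS mean in RPS2, RPSA and RPS12, within the 2.05 to 4.20 of the genes other than RPS9. Ribosomal protein genes have many near-identical processed pseudogenes, which makes the levels uncertain to the extent that reads from such copies are counted.

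Against this background, the compound was compared with vehicle at each time and dose by edgeR's quasi-likelihood test over all transcripts, with a call at a false discovery rate (FDR) of 0.1. P-values measure the spread between replicate libraries. The 0.3 μM and 1.5 μM comparisons of 1 time share the vehicle libraries, and the vehicle time comparison shares them with both.

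After 10 min at 1.5 μM, footprints on RPS28 rose and no other small-subunit gene passed the test. RPS28 footprints stood at 475, 494 and 663 CPM in vehicle and at 1012, 954 and 778 CPM with compound. All 3 compound libraries were above all 3 vehicle libraries, and the third replicates were the nearest to each other. The fitted log2 fold change was 0.75 (SE 0.14, a fold of 1.69, FDR 0.0460 by edgeR, higher in all 3 compound libraries). Of 11045 transcripts tested, 94 (0.851%) were called, so that 1 of 28 is to be read against that share. The RPS28 call was lost, with its direction kept, when the first or second compound library or the first vehicle library was left out (FDR 0.262, 0.284 and 0.206), and when all 18 libraries entered the fit (0.182). Without the third vehicle library 10 of the 28 genes were called, where 1656 of 11130 transcripts (14.9%) were. DESeq2 called 5 of 27 genes given an adjusted p from the 6 libraries (RPS2, RPS18, RPS21, RPS28 and RPSA), where 519 of 9000 transcripts (5.77%) were called.

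RPS21 showed the next largest difference. It stood at 873, 801 and 1305 CPM in vehicle and 1372, 1497 and 1448 CPM with compound, with the third vehicle library close to the compound values but below them all. The log2 fold change of 0.54 (SE 0.15) had an FDR of 0.138 by edgeR. At the other end, RPS20, another head protein, had 49, 100 and 55 CPM in vehicle and 49, 53 and 51 with compound. These groups overlapped, and the value of −0.41 (SE 0.21, FDR 0.320 by edgeR) rests on the second vehicle library, which is the only one above 55 CPM. RPS9 gave 0.50 (SE 0.29) on its few reads, and RPS25 −0.20 (SE 0.12).

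Over the 28 genes the log2 fold changes leaned upward at this time point. The median was 0.19, against 0.07 over the RPL genes and 0.01 over all transcripts tested, and 21 of 28 (75%) were above 0, against 31 of the 45 RPL genes (68.9%) and 50.8% of all. Compound and vehicle libraries did not overlap, with compound higher, in 10 genes (35.7%), where 10.5% of all transcripts and 6 of the 45 RPL genes (13.3%) did so. Among them were RPS2, RPS14, RPS16, RPS18, RPS21, RPS26, RPS28 and RPSA. RPS18, for example, which sits at the head beside the large subunit, had 1351, 1284 and 1424 CPM in vehicle and 1639, 1627 and 1634 with compound. RPS3A was the only gene with compound lower and no overlap (11.5% of all). The share of coding reads on the 28 genes was 2.33 to 2.56% in vehicle and 2.64 to 2.73% with compound, without overlap.

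The 10 min vehicle libraries were also the low side of the comparison in time. Between 10 and 60 min in vehicle no small-subunit gene was called by edgeR (0 of 11098 transcripts, 0%), with 9 of 28 at an unadjusted p under 0.05 against 6.93% of all transcripts, and DESeq2 called 3 of them (RPS18, RPS28 and RPS29), where 43 of the 603 transcripts to which it gave an adjusted p (7.13%) were called. The median was 0.18, against 0.08 over the RPL genes and −0.00 over all, and 23 of 28 (82.1%) were above 0, against 75.6% of the RPL genes and 49.6% of all transcripts. The 60 min libraries lay wholly above the 10 min libraries in 8 genes (28.6%), against 5.86% of all transcripts and 24.4% of the RPL genes, and below them in 0 of 28 (6.63% of all). RPS28 went from the 475 to 663 CPM given above to 746, 819 and 815 CPM (0.55, SE 0.14, FDR 0.710 by edgeR), RPS21 gave 0.46 (SE 0.19), RPS25 −0.14 and RPS20 −0.52 (SE 0.23). How much of the difference at 10 min between compound and vehicle lies in these vehicle libraries cannot be told apart with these samples.

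**Figure D2:**
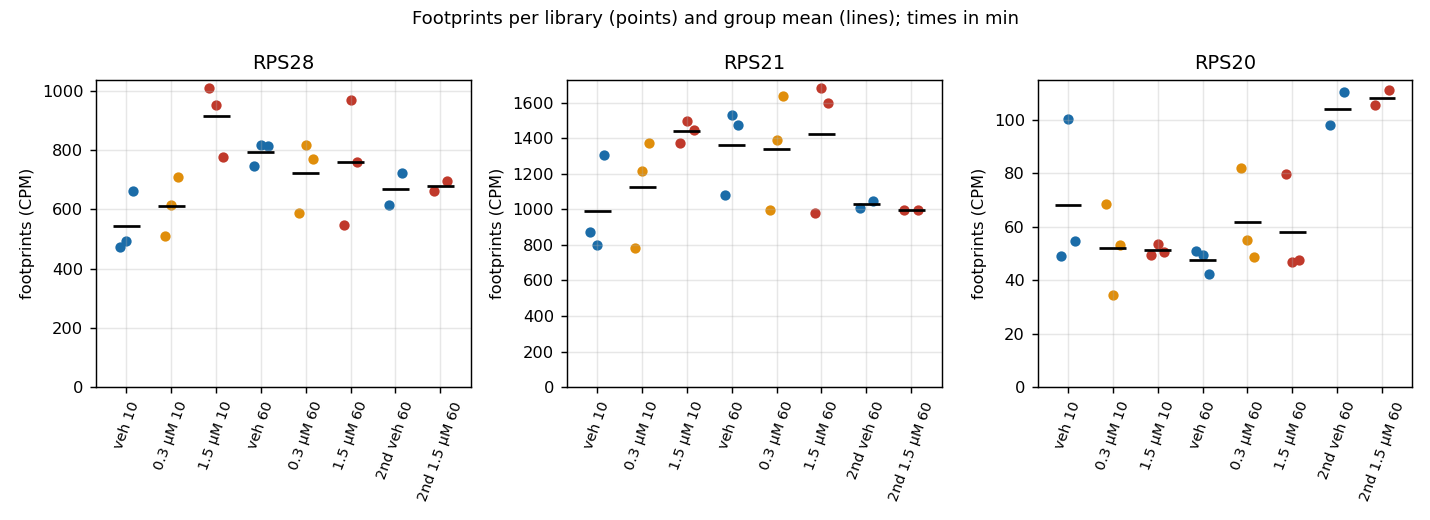
Footprints (CPM, linear axis from 0) on RPS28, RPS21 and RPS20 in each ribo-seq library (points) with the group mean (line), by treatment and time in min, the second study at the right. For RPS28 the 10 min vehicle libraries (475 to 663 CPM) lie below the 10 min 1.5 μM libraries (778 to 1012 CPM), while the 60 min groups overlap.

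At 60 min with 1.5 μM, none of the 28 genes was called by edgeR or DESeq2, and none had an unadjusted p under 0.05, where 8 of 11021 transcripts (0.0726%) were called. With the replicate number as a block, since same-numbered libraries deviated together at 60 min, 51 transcripts (0.463%) and again none of the 28 were called. RPS28 then stood at 549, 969 and 760 CPM with compound, on both sides of the vehicle range of 746 to 819 CPM, a log2 fold change of −0.07 (95% interval −0.41 to 0.27). The highest values were 0.29 for RPS20 (SE 0.20) and 0.20 for RPS6, the S6 kinase substrate of the body. The lowest were −0.25 for FAU (SE 0.15) and −0.19 for RPS19 (SE 0.11), the gene most often mutated in Diamond-Blackfan anaemia. RPS19 was the only gene of which the groups did not overlap, with compound lower (485 to 543 CPM against 579 to 596 CPM), where 3.08% of all transcripts did so. Compound was higher without overlap in 0 of 28 (3.63% of all). The median was 0.03.

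The change from 10 to 60 min in the effect of 1.5 μM was tested as an interaction. It called 0 of 11167 transcripts (0%) and none of the 28 genes by edgeR or DESeq2, with 3 of the 28 (10.7%) at an unadjusted p under 0.05, against 8.89% of the RPL genes and 4.53% of all transcripts. RPS28 had the lowest value, −0.83 (SE 0.25, FDR 0.856 by edgeR), followed by FAU at −0.62, and RPS20 (0.70, SE 0.33) and RPS25 (0.26) had the highest. The median was −0.16, against −0.02 over all transcripts. The effect on RPS28 is therefore not shown to differ between the times at this threshold.

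The lower dose gave no call at either time. At 0.3 μM for 10 min, 0 of 11131 transcripts (0%) and none of the 28 genes were called by edgeR or DESeq2, none of the 28 had an unadjusted p under 0.05, and the median was 0.04. The groups overlapped in all 28 genes, where 1.82% of all transcripts were higher and 2.79% lower without overlap. RPS28 stood at 511, 614 and 709 CPM, overlapping the vehicle range (0.18, 95% interval −0.14 to 0.49). The extremes were RPS9 (0.49, SE 0.32) and RPS29 (0.32) above and RPS20 (−0.39, SE 0.28) and FAU (−0.13) below. At 60 min, 0 of 11141 transcripts (0%) were called, again none of the 28 by either tool and 1 of 28 at an unadjusted p under 0.05 (0.871% of all). All 28 overlapped here too (2.55% of all transcripts higher and 2.37% lower without overlap). The median was −0.00, with RPS20 (0.37, SE 0.18) and RPS9 (0.14) at the top and FAU (−0.28) and RPS28 (−0.14) at the bottom.

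The second study repeated the 60 min comparison with closer replicates. Of 11263 transcripts 13 (0.115%) were called in the ribo-seq and none of the 28 genes, by edgeR or DESeq2, with none at an unadjusted p under 0.05. Compound lay above vehicle in both libraries in 5 genes (14.9% of all transcripts) and below in 2 (15.3% of all). RPS28 was at 615 and 722 CPM in vehicle and 662 and 697 CPM with compound (0.03, 95% interval −0.13 to 0.18). Apart from RPS9 (0.44, SE 0.35), the values lay between −0.09 for RPS15A, with RPS24 at −0.08, and 0.12 for FAU. The median SE over the 28 genes was 0.0634 and that of the RPL genes 0.0642.

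In the matched mRNA-seq none of the 28 was called (0 of 11812 transcripts, 0%, by edgeR, with none of the 28 at an unadjusted p under 0.05 or called by DESeq2). The values were small and mostly negative, with a median of −0.07 and 25 of 28 below 0, against medians of −0.04 over the RPL genes, with 37 of 45 below 0, and −0.00 over all. RPS29 (−0.17) and RPSA (−0.16) were lowest and RPS20 (0.02) and RPS24 (0.01) highest. Both compound libraries lay below both vehicle libraries in 14 of 28 genes (50%), against 14.4% of all transcripts and 24.4% of RPL genes, and above them in 0 of 28 (15.2% of all). RPS2 mRNA, for example, was at 5965 and 6433 CPM in vehicle and 5747 and 5773 CPM with compound. The share of mRNA reads on the 28 genes was 3.79 ± 0.0205% in vehicle and 3.57 ± 0.0318% with compound (SD, n = 2).

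The change in TE was fitted in 1 model of all 8 libraries, as the term by which the treatment effect differs between the assays. It called 4 of 11799 transcripts (0.0339%) and none of the 28 genes by edgeR or DESeq2, with none at an unadjusted p under 0.05. That fit did not pair the 2 assays of a culture. With the culture as a block, 13 transcripts (0.110%) and again none of the 28 were called. The median was 0.09 and 24 of 28 were above 0, against 27 of 45 RPL genes and 49.0% of all transcripts. This term sets the footprint effect against the mRNA effect. The footprint median was 0.003, with 14 of 28 above 0, and the mRNA median −0.07, with 25 of 28 below 0. RPS9 (0.42, SE 0.54) and FAU (0.21) were highest, RPS24 (−0.10) and RPS15A (−0.01) lowest.

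**Figure D3:**
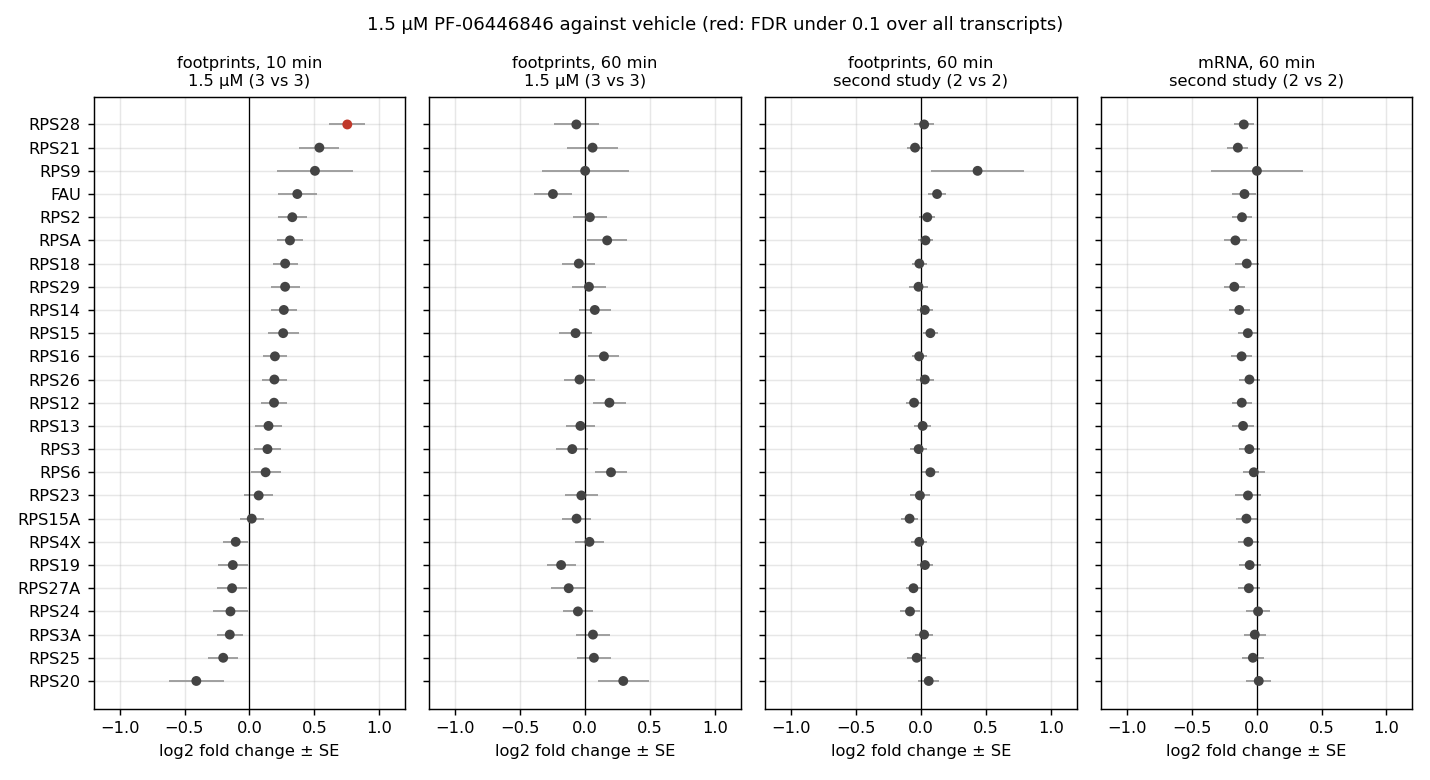
Log2 fold change of 1.5 μM PF-06446846 against vehicle for 25 of the 28 genes (points, with bars of 1 SE), in 4 comparisons, ordered by the 10 min values, with calls at an FDR under 0.1 in red. RPS28 at 10 min is the only call, most genes lie right of 0 in that panel, and most mRNA values in the last panel lie slightly left of 0.

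By role, the 12 head genes had a median log2 fold change of 0.19 at 10 min and 1.5 μM, with RPS28 called, and the 16 body genes 0.21 with none called. The 15 proteins shared with bacteria had 0.26 and the 13 found only in archaea and eukaryotes, or in eukaryotes alone, 0.12. The 6 Diamond-Blackfan genes present had 0.10, with RPS28 called. FAU (0.37, FDR 0.238 by edgeR) and RPS27A (−0.13, FDR 0.546), the ubiquitin-like and ubiquitin fusions, had opposite signs and neither was called.

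Outside the subunit, 14 other genes with TOP mRNAs, among them elongation factors, had a median of 0.09 and none was called. They ran from NAP1L1 (−0.26) to PABPC1, the poly(A)-binding protein (0.69, FDR 0.150 by edgeR). The 10 genes of the mTOR and LARP1 axis had a median of 0.04 and the 24 assembly factors of the subunit −0.04, with none called. Among the RPL genes RPL28 was called at 10 min (0.49, FDR 0.0893 by edgeR). The 7 hepatocyte genes had a median of 0.00.

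Reads by codon add a second layer. Reads were assigned to the codon in the ribosomal P-site, the site of the peptidyl-tRNA. Across codons of a gene, footprint profiles of 10 and 60 min vehicle libraries correlated with a median r of 0.877 over the 28 genes (range 0.738 to 0.968). With the second study the median was 0.682, and with mRNA reads 0.20. Codons of 1 gene are not independent replicates, and these libraries share cells and protocol.

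Each gene's highest vehicle codon, leaving out the ends, was compared with its own CDS mean. RPS13, a body protein, had the strongest well-covered site, at codon 59, with 21.4 times the mean (7247 of 50535 reads), the 97.5th percentile of 3061 transcripts with at least 10 reads per codon. RPS2 codon 124 followed with 9.88. RPS9 codon 72 gave 31.4, from 62 of 158 reads. The median over the 27 genes with at least 10 reads per codon was 6.02, over RPL genes 6.22 and over all such transcripts 7.02. The windows show these codons in capitals, each with 5 codons before and 4 after, and the coordinates (GRCh38) are those of the capitals.
RPS13, codon 59, chr11:17075598-17075600, minus strand: ctgagagattcacatGGTgttgcacaagta
RPS2, codon 124, chr16:1963152-1963154, minus strand: ggccagcgcaccaggTTCaaggcatttgtt

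The RPS13 site was present in every ribo-seq library, at 7.30 to 29.97 times the mean in the first study and 6.55 to 9.89 times in the second, while mRNA-seq had 0.284 to 0.894 times the mean at this codon. At 10 min it held 18.9, 12.9 and 22.3 times the mean in vehicle and 13.8, 18.8 and 21.6 times with 1.5 μM, which overlapped (exact two-sided permutation test, p = 1). The RPS2 site was higher in the first study than in the second, at 8.07 to 14.8 times the mean in the first and 2.93 to 4.82 times in the second, without overlap.

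The last sense codon, where ribosomes wait with the stop codon in the A-site, was the other peak. It held 20.2 times the CDS mean in RPSA, 18.9 in RPS25, 14.7 in RPS2 and 13.4 in RPS16, the neighbour of the P-site tRNA. Of the 28 genes 11 had at least 5 times the mean there. The genes at or near 0 at their listed end (RPS3, RPS6, RPS9, RPS13 and RPS23) were all among those with a CDS differing in length from the canonical one, and of the genes at full length RPS21 had the lowest value, 1.21. The median over genes was 4.29, against 4.70 for RPL and 7.11 for all well-covered transcripts. The windows give the last 10 codons with the last sense codon in capitals, for 3 genes with high and 3 with low values.
RPSA, 20.2 times, chr3:39412363-39412365, plus strand: tgggtaggagcaaccactgactggTCTtaa
RPS25, 18.9 times, chr11:119015848-119015850, minus strand: gatgctccagctgctggtgaagatGCAtga
RPS2, 14.7 times, chr16:1962101-1962103, minus strand: actcaggctccagctgtggctacaACAtag
RPS15A, 2.45 times, chr16:18783012-18783014, minus strand: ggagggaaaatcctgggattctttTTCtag
RPS14, 2.38 times, chr5:150444289-150444291, minus strand: aaggggggtcgccgtggtcgccgtCTGtga
RPS21, 1.21 times, chr20:62388461-62388463, plus strand: gccgatggcatcgtctcaaagaacTTTtga

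The last sense codon differs among all 6 genes, and the stop codons TGA and TAG each follow both a high and a low value. Among RPSA, RPS25, RPS2 and RPS16, the genes read per library at this codon, RPS2 differed most between studies. It held 3.76 to 23.4 times the mean in the first and 29.1 to 36.4 in the second, without overlap. RPSA was lower in the second (10.6 to 15.3) than in most libraries of the first (13.3 to 42.3).

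At 10 min the end peak was lower with compound, without overlap, in 18 of the 27 well-covered genes (66.7%), against 56.8% of the RPL genes and 34.7% of 3061 transcripts, and higher in 1 of 27, RPSA, against 1.5% of all. Single end peaks were tested in 4 genes only, those with the highest vehicle values (RPSA, RPS25, RPS2 and RPS16). Like the highest inner codons tested, they were picked from the same vehicle libraries that entered the tests. A lower value with compound at these codons is therefore not independent of that choice. RPSA held 15.98, 15.8 and 21.7 times the mean in vehicle and 25.0, 34.9 and 30.3 with compound. RPS2 went the other way, with 13.9, 22.6 and 23.4 in vehicle and 5.00, 6.83 and 11.6 with compound, and so did RPS16, with 12.7, 19.6 and 11.4 against 5.48, 10.0 and 10.99. With 3 against 3 libraries an exact permutation test cannot go below p = 0.1, which each of these reached, and over the 18 such tests made on codons the adjusted p was 0.450. RPS25 overlapped, and at 60 min no end peak had a p under 0.3.

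**Figure D4:**
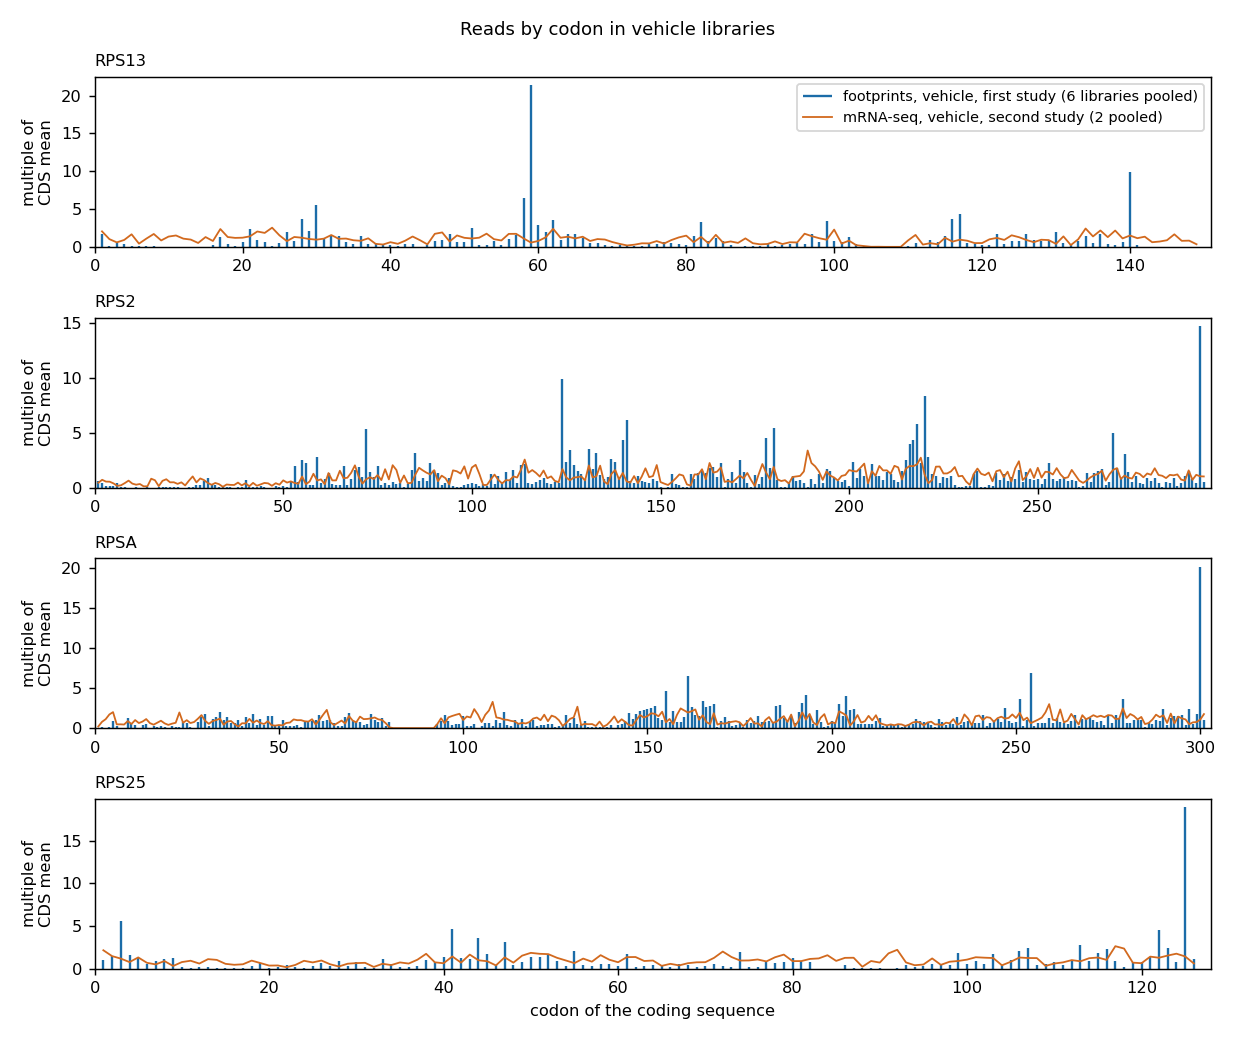
Reads by codon in RPS13, RPS2, RPSA and RPS25 as multiples of the CDS mean, with vehicle footprints of the first study as bars (6 libraries pooled) and vehicle mRNA-seq of the second study as a line (2 pooled). RPS13 has 1 codon at 21.4 times the mean, RPSA, RPS25 and RPS2 end in a peak of 14.7 to 20.2 times at the last sense codon, the mRNA line stays flat at these codons, and RPSA has almost no reads at codons 81 to 92.

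Redistribution of footprints along a CDS by the compound was read in 2 ways, after the approach of the study. In both, the Z-score is the value divided by the root mean square of its bin of transcripts of like depth, with no mean subtracted, which is how the scripts of the study compute it. The study's methods describe it as a distance from the bin mean, and in that form the calls among the 28 genes did not change. The first measure, Dmax, is the largest excess of the cumulative share of reads in compound over vehicle, expressed as this Z-score, and a stall was called at a Z of 2 or more with fewer reads beyond that point at an FDR of 0.1. At 10 min FAU alone of the 28 genes was called (154 of 10755 transcripts, 1.43%). Its Dmax was 0.238 at codon 68, with a Z of 3.44 (4.598 from the bin mean), and reads beyond that codon had a log2 fold change of −0.52 (SE 0.12, FDR 0.0611 by edgeR).

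Per library, codons 1 to 68 of FAU held 47.3, 47.0 and 61.4% of its footprints in vehicle and 78.2, 78.5 and 65.4% with compound at 10 min, so that the groups did not overlap and the third replicates differed least. Codon 68 was picked as the point where these same libraries, pooled, differed most. The separation there and the test on reads beyond it are therefore not independent of that choice. At 60 min they held 36.4, 74.0 and 69.4% in vehicle and 56.2, 80.8 and 69.7% with compound (replicates in the same order). The groups overlapped, with the first replicate lowest in both, while compound was the higher of each same-numbered pair, by little in the third. In the second study they held 63.9 and 62.9% in vehicle and 69.2 and 65.7% with compound, again without overlap. Neither was called, with a Z of 1.39 at 60 min and 2.34 in the second study. The count tests there did not use codon 68. At 60 min, with a Z under 2, reads after codon 50 were counted (−0.47, SE 0.18, FDR 0.9998 by edgeR). In the second study reads after codon 61, its own Dmax position, were counted (−0.08, SE 0.08, FDR 0.999 by edgeR).

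FAU is also a gene whose listed CDS leaves the canonical frame, after codon 73. The codons beyond held 40.8, 46.2 and 30.9% of vehicle reads at 10 min and 15.4, 15.2 and 23.8% with compound. When only the 73 shared codons were counted, a setting chosen after seeing the data, Dmax was 0.115 at 10 min, against 0.238 over the whole CDS, and 0.0605 at 60 min and 0.0601 in the second study, against 0.0579 and 0.0629. Within these codons, codons 1 to 68 held 79.8, 87.3 and 88.8% in vehicle and 92.5, 92.6 and 85.8% with compound at 10 min, so that the groups overlapped. In the second study they held 92.3 and 91.9% in vehicle and 94.7 and 93.8% with compound, without overlap. The FAU call was also lost without any 1 of the 3 compound libraries or the second vehicle library.

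RPS20 had a Z of 2.26 at 10 min without a call (FDR 0.106 by edgeR), where 3.48% of all transcripts reached a Z of 2. At 60 min none of the 28 genes was called (22 of 10703 transcripts, 0.206%, and 43, 0.402%, with the replicate block), RPS9 had the largest Z, 1.65, and 2.67% of all transcripts reached a Z of 2. In the second study none of the 27 tested was called either (34 of 10988, 0.309%), where 2.34% of all reached a Z of 2, with RPS26 at 1.42 after FAU.

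**Figure D5:**
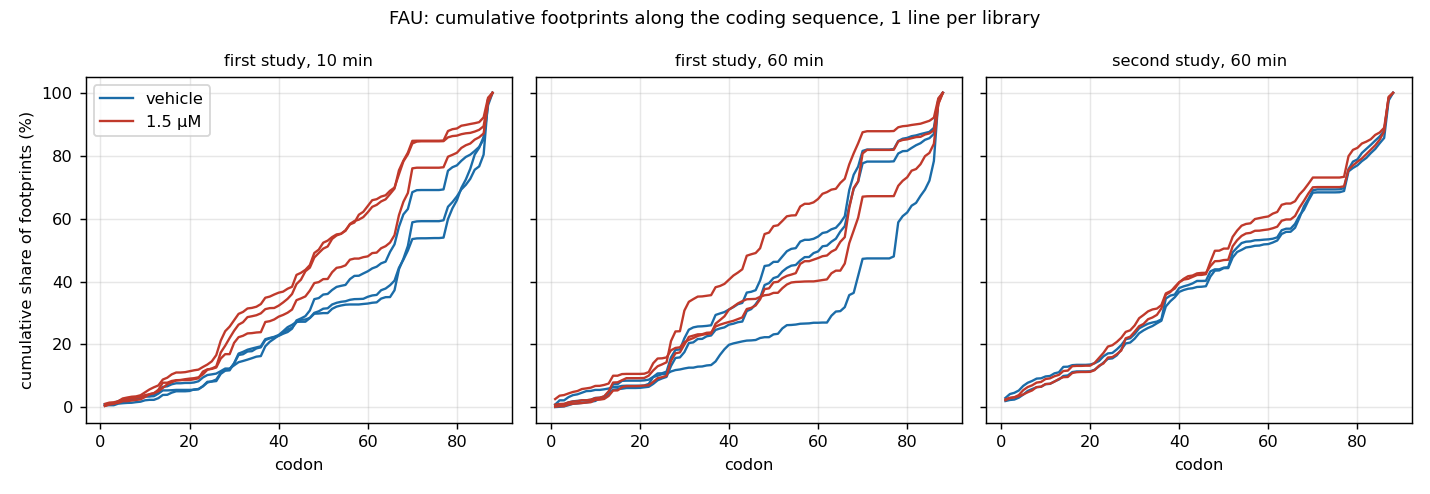
Cumulative share of FAU footprints (%) along its 88 codons, 1 line per library, vehicle in blue and 1.5 μM in red, in 3 panels by study and time. At 10 min all 3 compound lines lie above the vehicle lines at codon 68, which was picked from these same libraries (65.4 to 78.5% against 47.0 to 61.4%). At 60 min in the first study the groups overlap there, and the lines are flat where the listed CDS leaves the canonical frame.

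The second measure, the mean codon position of the reads (center of density), called none of the 28 genes at a mean Z beyond 3 in any comparison, where 57 of 10639 transcripts (0.536%) were called at 10 min, 55 of 10484 (0.525%) at 60 min and 87 of 10924 (0.796%) in the second study. RPS24 had a Z of −0.81 at 10 min (−0.58 from the bin mean). In RPS24 the center lay at codons 69.2, 75.5 and 67.7 in vehicle and 59.4, 56.9 and 59.2 with compound, which did not overlap, a shift of −9.17% of the CDS where the median of all transcripts was −1.23%. This was not particular to RPS24. Most of the 28 genes moved toward the start without overlap at 10 min. FAU (−11.0%), RPS12 (−8.77%) and RPS26 (−8.38%) had large shifts and RPS4X (−2.24%) a smaller one. How far the lower end peaks with compound at 10 min enter into these shifts was not tested. RPSA was among those that moved toward the end (2.71%), also without overlap. The share of all transcripts with centers that did not overlap was not computed. RPS6 moved toward the end at 60 min, from codons 90.02, 96.7 and 95.1 in vehicle to 109, 102 and 114 with compound (Z 1.02, or 1.33 from the bin mean), and in the second study from 105 and 104 to 109 and 111 (Z 0.84, or 1.14), without overlap in either.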

How the data were processed

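Footprints and mRNA fragments of Huh7 cells were sequenced by the authors, who removed ribosomal RNA reads, chose the major transcript of each gene and deposited raw counts of reads per codon of 1 CDS per gene, placed by the inferred P-site. The submitters' processing notes name Bowtie 1.1.2 and kallisto 0.42.5. Reference transcripts were those of Ensembl on GRCh38, and libraries were not pooled. Counts were summed per CDS. Transcript names came from GENCODE (11270 of 12325 matched).

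Groups were tested with edgeR 4.0.16 (R 4.3.3; filterByExpr, TMM, quasi-likelihood, Benjamini-Hochberg over all transcripts, FDR 0.1), in fits of the compared groups only. CPM are counts scaled to the coding reads of the library. Dmax and center of density used Z-scores by the root mean square of bins of 300 transcripts and at least 10 reads, the former on reads pooled per group. All were tested on simulated data. Counts within replicate pairs differed by 4.38 to 50.8 times the sampling variance per degree of freedom (22 pairs), so replicates were treated as separate libraries.

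Members and lists were chosen with earlier results of these data known. Genes named were every call, otherwise the 2 highest and 2 lowest values, the 3 highest and lowest levels and TE, and the 4 strongest codon sites, with RPS9 added for its few reads. A few genes this rule names are not reported here, though they stay in the counts and medians. RPS28, RPS21, RPS18, RPS19, RPS2 and RPS24 were followed further after their values were seen. Same-numbered libraries deviated together in 1.5 μM against vehicle at 60 min (correlations 0.410 to 0.531) and in both 0.3 μM comparisons (0.153 to 0.558), but not in all pairs at 10 min with 1.5 μM (0.0653 to 0.241). Ribo-seq and mRNA-seq of 1 number in the second study came from the same cultures. Alternatives were DESeq2 1.42.0, its size factors, no filter on low counts, all libraries in 1 fit, a replicate block, a stricter FDR, other bin sizes, other codon windows and leaving out each library. A change of sign was counted only for values that passed the test.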

Additional observations from a re-analysis of the deposited data

How the results depend on the processing

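Of 192 alternatives to the 15 counts of called genes, 174 gave a count within 1.5 times the main one, most of them 0 against 0. The exceptions fell at 10 min, apart from the vehicle time comparison, where DESeq2 called 3. Shares in parentheses are those of all transcripts called under the same setting. For 1.5 μM against vehicle at 10 min the 1 call (0.851%) became 5 with DESeq2 (5.77%), 5 with the replicate block (10.8%), which adds FAU, RPS2, RPS21 and RPSA to RPS28, 2 without the last 15 codons (FAU and RPS28, 2.23%) and 0 with all 18 libraries in the fit (0.266%). Leaving out 1 library gave 0 to 10 calls (0.0810 to 14.9%), with 10 when vehicle replicate 3 was left out (14.9%) and 0 without compound replicate 1 or 2 or vehicle replicate 1. For stalls at 10 min the 1 call (1.43%) became 0 at an FDR of 0.05 (0.762%), 2 with the replicate block (FAU and RPS20, 2.22%) and 3 with bins of 100 (FAU, RPS24 and RPS26, 1.41%), and leaving out 1 library gave 0 to 3 (0.249 to 2.30%), with 3 without vehicle replicate 1 (1.48%) or 3 (2.30%). The numbers pair the libraries at 60 min and at 0.3 μM, and there the block left the calls among the 28 genes at 0, while over all transcripts calls at 1.5 μM and 60 min went from 8 to 51 (0.463%) and stalls from 22 to 43 (0.402%), with 0 calls at 0.3 μM at either time. In the second study, of 2 pairs, it also called none of the 28, with 129 transcripts in place of 13 and 74 stalls in place of 34. At 10 min with 1.5 μM the correlations of same-numbered libraries were positive but weak (0.0653 to 0.241), the lowest under the minimum of 0.1 set for pairing. Whether the numbers pair the libraries there is not settled. Z-scores taken from the bin mean, for the center of density a setting chosen after seeing the data, changed no count among the 28. No called value was reversed, and the causes were not tested. RPS9 rests on 13 to 85 reads per library, and the effect of depth on the calls was not tested.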
